A study of Mus musculus with 48 samples.

Results

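The genes described here are 42 genes of DNA replication and cell division, picked by symbol among the 51789 gene IDs of the count table. They run from the replicative helicase to the proteins of the spindle, and all 42 were found and passed the filter on low counts in every comparison. The RNA came from mouse macrophages in 16 groups of 3 libraries, 48 in all, counted at the 3′ end of transcripts. The study asked what 4 h with 10 µM AP-3-84, an agent whose nature the labels leave unstated, changes in macrophages of different origin, against its vehicle DMSO. AP-3-84 and vehicle groups were made for each of 8 populations.

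The ascites population was cells sorted with magnetic beads for F4/80, a macrophage surface protein, out of peritoneal washes. The washes were made 45 days after mice received ID8 cells, which derive from mouse ovarian epithelium and form tumours. For the thio population the same sort followed 4 days after thioglycollate (1 ml, 3%), which irritates the peritoneum and draws macrophages into it. The labels give the strain C57BL/6 for both, but the genotype field gives B6(Cg)-Tyrc-2J/J for ascites and wild-type C57BL/6 for thio, so origin and this genotype entry cannot be told apart. The remaining 6 populations were grown from C57BL/6 bone marrow for 6 days in M-CSF at 10 ng/mL, from wild-type (WT) or p53 knockout (KO) mice. They stayed unpolarized (M0), or had 24 h more with LPS at 100 ng/mL and IFN-γ at 50 ng/mL (M1), or 24 h more with IL-13 and IL-4, each at 10 ng/mL (M2). The labels do not say whether M0 cells were kept for these 24 h, so cytokines and time in culture cannot be told apart in any comparison of M1 or M2 with M0. Names such as WT_M0 and KO_M2 join the genotype and the state. The genotype field calls all of these wild-type, and the WT and KO names follow titles and descriptions. The labels do not say how the knockout was made, nor whether libraries of a group came from separate mice or cultures, so p-values measure the spread between these libraries, which may be technical.

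A dividing cell turns these genes on in order. Before DNA synthesis, E2F transcription factors released from the retinoblastoma family switch on the helicase subunits Mcm2 to Mcm7, the loader Cdc6, and the enzymes that supply nucleotides. Later, the B-MYB and MuvB complex and FOXM1 switch on the mitotic genes, often through a promoter element called CHR (cell cycle gene homology region). In resting cells the DREAM complex holds both sets down, and p53 can bring this about through p21, the product of Cdkn1a. Macrophage progenitors divide in M-CSF, while most mature macrophages do not.

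Promoters of 34 of the 42 genes were matched by symbol in RefSeq (GRCm38.p6), each with 250 bases before and 50 bases after the start of the gene. Kif20a, Stmn1, Foxm1, Tpx2, Mcm4, Ccna2, Ccne2 and Aurkb were not matched. An E2F site was taken as TTTCCCGC, TTTCGCGC, TTTGCCGC or TTTGGCGC and a CHR element as TTTGAA or TTCGAA, on either strand, with overlapping matches counted apart. The 5 promoters below are shown because they hold E2F sites or CHR elements and belong to genes whose values recur in the results. Mcm5 (chr8:75109259-75109558, plus strand) and Mcm6 (chr1:128359656-128359955, minus strand) encode helicase subunits. Cdk1 (chr10:69352863-69353162, minus strand) encodes the kinase that starts mitosis, and Ccnb2 (chr9:70421505-70421804, minus strand) encodes cyclin B2, its partner. Top2a (chr11:99024140-99024439, minus strand) encodes topoisomerase II alpha, which untangles sister chromosomes. Each runs 5′ to 3′ along the gene, and capitals mark E2F sites and CHR elements.
Mcm5: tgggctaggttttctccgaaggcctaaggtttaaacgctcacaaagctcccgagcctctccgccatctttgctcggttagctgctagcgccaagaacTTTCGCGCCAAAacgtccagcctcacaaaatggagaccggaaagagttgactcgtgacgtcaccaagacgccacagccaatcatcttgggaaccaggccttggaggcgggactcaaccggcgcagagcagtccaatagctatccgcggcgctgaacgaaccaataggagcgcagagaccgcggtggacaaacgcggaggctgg
Mcm6: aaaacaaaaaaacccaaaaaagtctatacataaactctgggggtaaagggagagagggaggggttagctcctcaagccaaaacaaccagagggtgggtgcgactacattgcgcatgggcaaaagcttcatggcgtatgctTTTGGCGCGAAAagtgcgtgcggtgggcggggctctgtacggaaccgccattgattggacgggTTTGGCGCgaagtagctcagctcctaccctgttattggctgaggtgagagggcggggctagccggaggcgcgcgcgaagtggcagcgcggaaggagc
Cdk1: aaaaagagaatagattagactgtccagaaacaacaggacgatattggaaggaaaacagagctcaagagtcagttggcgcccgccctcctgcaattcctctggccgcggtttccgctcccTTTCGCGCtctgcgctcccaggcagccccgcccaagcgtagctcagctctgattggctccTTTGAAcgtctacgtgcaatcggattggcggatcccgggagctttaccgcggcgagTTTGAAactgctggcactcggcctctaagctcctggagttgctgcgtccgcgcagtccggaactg
Ccnb2: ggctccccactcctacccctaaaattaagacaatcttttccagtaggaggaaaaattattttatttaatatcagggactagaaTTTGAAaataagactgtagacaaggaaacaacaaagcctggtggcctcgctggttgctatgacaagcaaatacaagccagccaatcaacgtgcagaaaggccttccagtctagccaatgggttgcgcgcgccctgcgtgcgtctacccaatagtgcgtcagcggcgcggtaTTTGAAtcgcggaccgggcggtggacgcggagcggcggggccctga
Top2a: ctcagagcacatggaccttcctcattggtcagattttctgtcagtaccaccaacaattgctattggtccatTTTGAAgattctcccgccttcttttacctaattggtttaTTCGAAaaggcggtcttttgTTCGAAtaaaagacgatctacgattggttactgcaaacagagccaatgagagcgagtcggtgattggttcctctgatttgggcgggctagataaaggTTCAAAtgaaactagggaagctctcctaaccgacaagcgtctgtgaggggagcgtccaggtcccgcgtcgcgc

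In these letters, Mcm5 holds 2 E2F sites and Mcm6 holds 3, in each case with an overlapping pair that reads on both strands, and neither holds a CHR element. Cdk1 holds 1 E2F site and 2 CHR elements. Ccnb2 holds 2 CHR elements and Top2a holds 4, with no E2F site of these spellings. Over the matched genes, an E2F site was present in 6 of 34 (17.6%), against 2.6% of all 27025 promoters of the table. Of these 6, 5 were replication genes (Mcm3, Mcm5, Mcm6, Mcm7 and Cdc6) and the other was Cdk1. A CHR element was present in 19 of 34 (55.9%), against 21.7% of all promoters. It was found in 4 of 4 mitotic kinase and checkpoint genes, 2 of 2 chromatin genes and 4 of 6 spindle genes. It was found in 3 of 3 genes of the anaphase-promoting complex and its substrates (Cdc20, Ube2c and Cdca3), named below by the complex alone. It was also found in 3 of 8 replication genes and 0 of 4 nucleotide genes. The letters CCAAT, on either strand, were present in 27 of 34 (79.4%), against 41.1% of all. A match is a description of letters, and no match says only that these spellings are not in this window.

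Total counts ran from 15532373 to 19417581 per peritoneal library and from 3081707 to 4645148 per bone marrow-derived library, of which the 42 genes took 5177 to 18701 and 2663 to 25037. Levels are given in CPM, the count of a gene relative to the total count of its library after TMM scaling. They were scaled within the peritoneal or the bone marrow-derived libraries, so levels are not compared between peritoneal and bone marrow-derived cells. Macrophage markers (8 genes, Adgre1 and Csf1r among them) were above 0 in every group. Lyz2 made up most of their sum, with group means from 7550 to 41300 CPM. Trp53 is no check of the knockout, since a 3′ count outside a deleted part does not show the deletion: it ran from 4.79 to 13.2 CPM in WT libraries, and KO libraries held 2.7 to 9.11 CPM. Cdkn1a, a direct p53 target, ran from 555 to 1120 CPM in WT libraries, and KO libraries held 34.1 to 292 CPM, with no overlap. Among the bone marrow-derived libraries, 4 stood apart from the others of their group: KO_M0 AP-3-84 replicate 2, KO_M1 vehicle replicate 1, KO_M2 vehicle replicate 1 and WT_M2 vehicle replicate 1. They were chosen after the data were seen, by no rule set beforehand. Each was the extreme of its group in the summed level of the 42 genes, at 3760, 2970, 2520 and 2060 CPM. Leaving them out therefore narrows the spread of the very values tested, and counts without them are no separate support. Results that rest on these 4 libraries are given with and without them. In bulk RNA, fewer dividing cells and less of these RNAs per cell cannot be told apart.

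Summed over the 42 genes, the vehicle libraries of WT_M0 held 4980, 4910 and 5130 CPM, and those of KO_M0 held 791, 842 and 720 CPM. WT_M1 held 2810, 2550 and 2870 CPM, and WT_M2 held 2060, 2670 and 3180 CPM. KO_M1 held 2970, 5330 and 4810 CPM, and KO_M2 held 2520, 5640 and 5650 CPM. WT_M0 was thus above WT_M1 and WT_M2 in every vehicle library, while KO_M0 was below KO_M1 and KO_M2 in every vehicle library. The ascites vehicle libraries held 956, 921 and 942 CPM and the thio ones 331, 334 and 333 CPM.

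**Figure D1:**
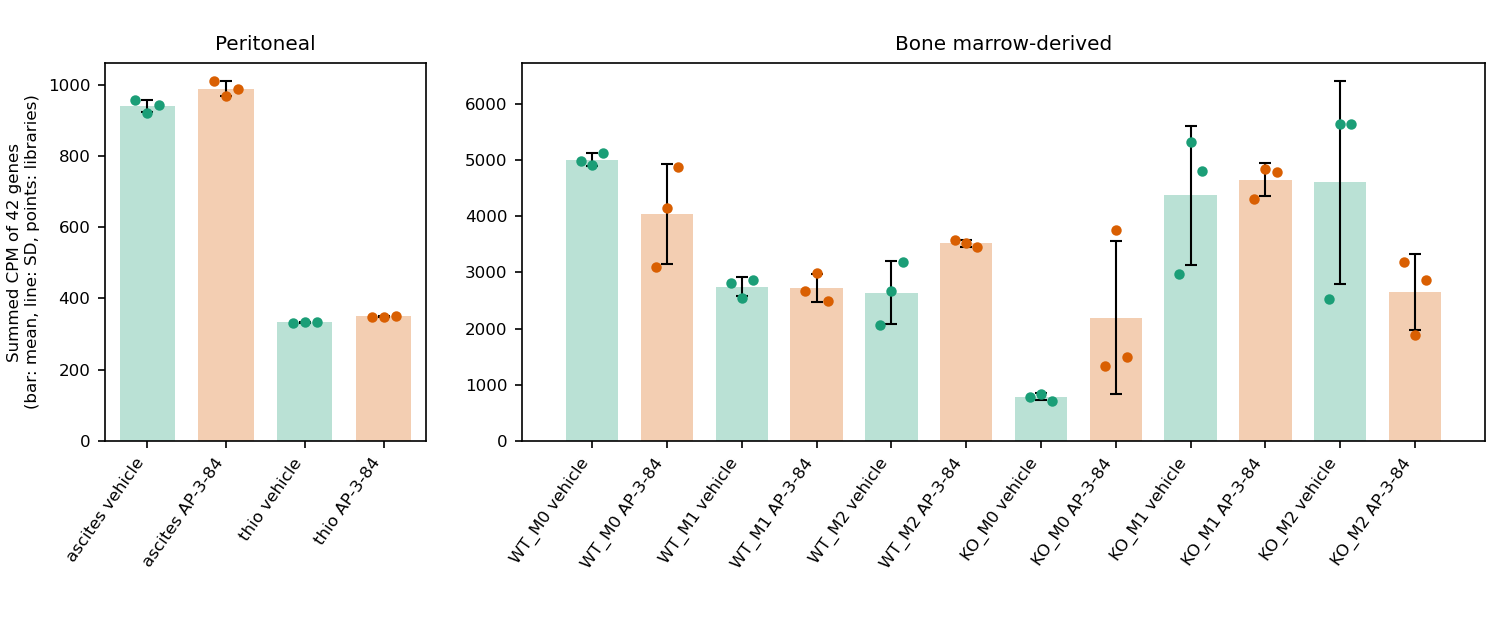
Summed level of the 42 genes in each library (CPM, y axis) by group (x axis), peritoneal libraries on the left and bone marrow-derived ones on the right. Bars are means, black lines are SD over 3 libraries and points are libraries; KO_M0 vehicle sits at 720 to 842 CPM, below every other bone marrow-derived group, and 1 KO_M0 AP-3-84 library lies at 3760 CPM beside 1340 and 1490 CPM.

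**Figure D2:**
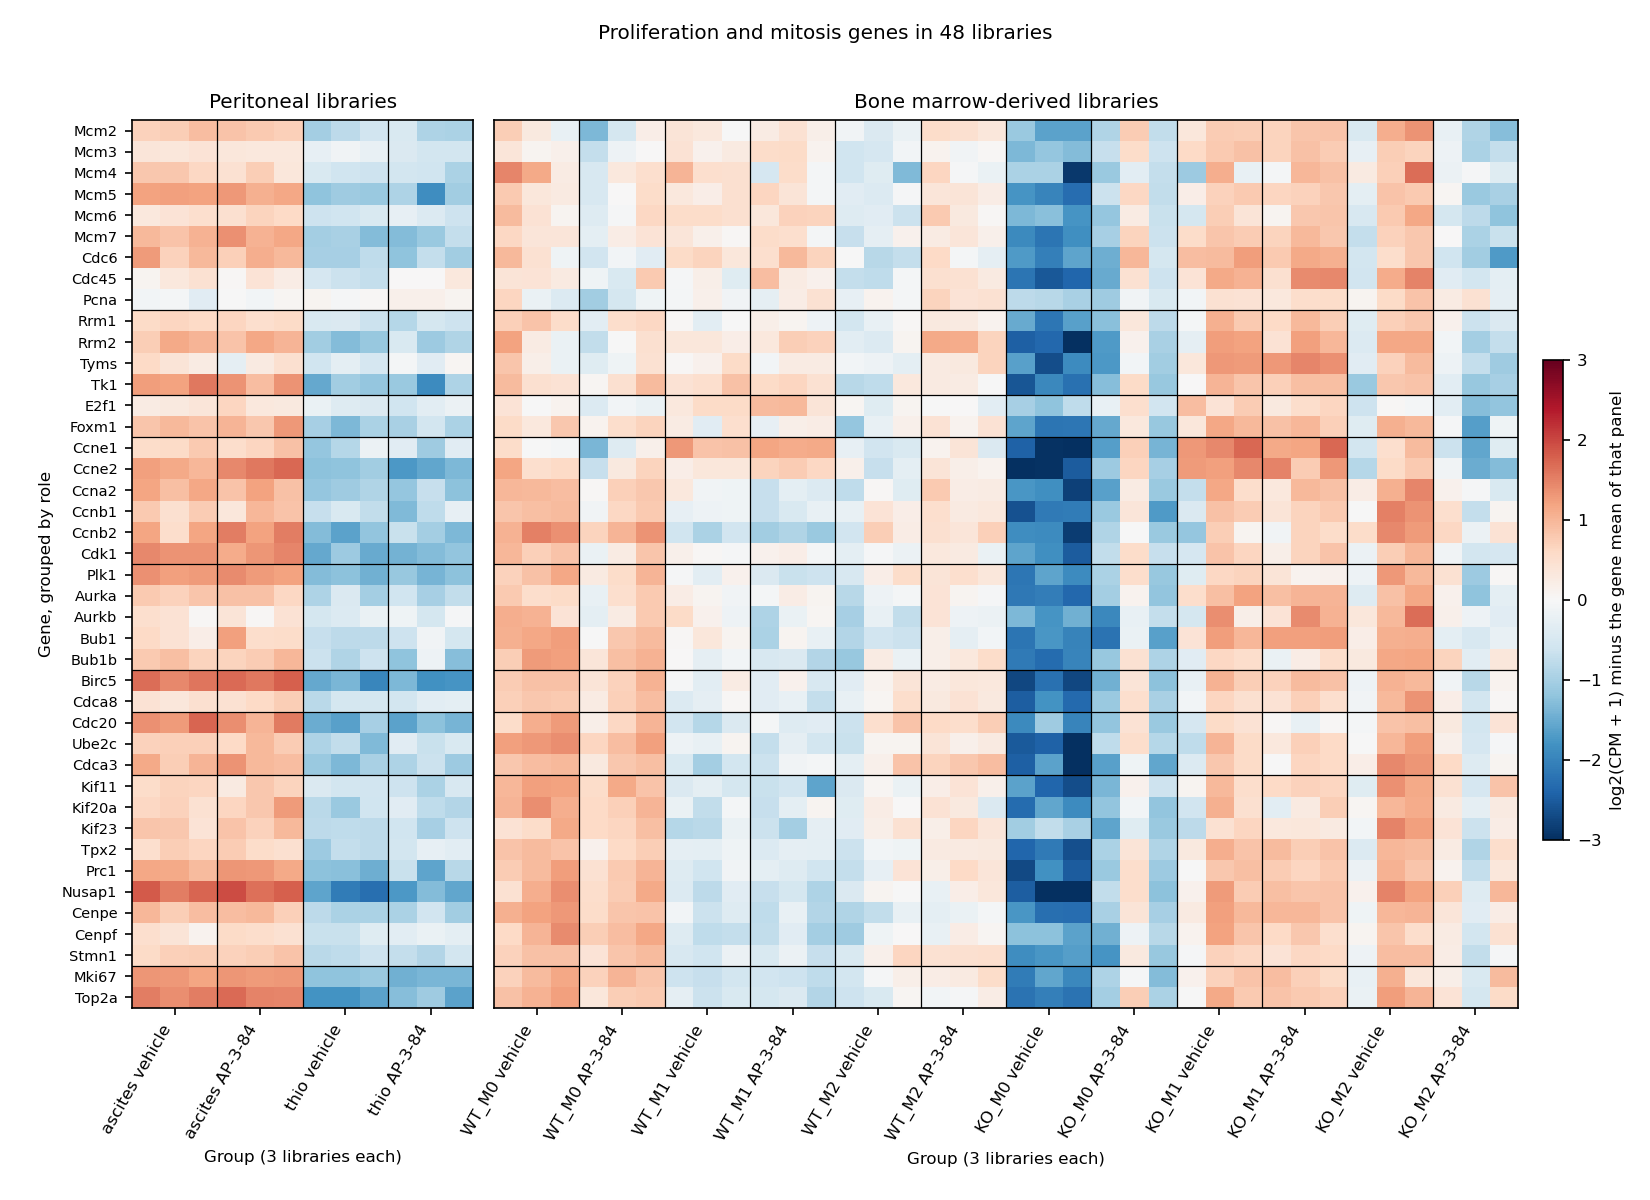
Level of each of the 42 genes (y axis, in order of role) in each of the 48 libraries (x axis, by group), as log2(CPM + 1) minus the gene's mean over the libraries of the same panel. Lines separate roles and groups; the KO_M0 vehicle columns are low for nearly the whole list, and the ascites vehicle columns lie above the thio vehicle columns for all genes but Pcna.

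Replication and division genes were higher in ascites than in thio macrophages. Of the 42 genes, 41 were called higher and 0 lower (edgeR's quasi-likelihood test, Benjamini-Hochberg adjusted p under 0.05, which is what called means below). Of all 16955 genes tested, 33.7% were called in either direction, 20.3% higher. The median log2 difference (ascites minus thio, vehicle) was 2.03 for the 42 genes and 0.05 for all genes. In 41 genes the 3 ascites libraries lay above the 3 thio libraries, but genes without overlap were not counted over all genes.

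Among replication genes, Mcm5 stood at 22.4, 23 and 22.7 CPM in ascites and at 3.45, 3.89 and 3.69 CPM in thio. The groups lay far apart, with a log2 difference of 2.63 (SE 0.205, edgeR adjusted p = 1.45e-08). Mcm3, another helicase subunit, differed by 0.57 (SE 0.0743, edgeR adjusted p = 8.13e-06). Pcna, the sliding clamp that holds DNA polymerase on its template, was the gene not called. It stood at 68.5, 69.5 and 57 CPM in ascites and at 76.4, 70.4 and 74.3 CPM in thio, so that every ascites library was slightly below every thio library (log2 difference -0.18, SE 0.0806, edgeR adjusted p = 0.1). With median-ratio size factors it was called lower (-0.22, edgeR adjusted p = 0.0435). Rrm2, the regulated subunit of ribonucleotide reductase, differed by 3.44 (SE 0.352, edgeR adjusted p = 4.5e-07).

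Of the transcription factors, E2f1 stood at 34.5, 35.7 and 37.5 CPM in ascites and at 25.2, 21.9 and 21.3 CPM in thio. That log2 difference was among the smaller ones, 0.66 (SE 0.125, edgeR adjusted p = 0.000428), while that of Foxm1 was 2.99. Among cyclins, Ccne1, which drives entry into DNA synthesis with CDK2, stood at 3.71, 3.84 and 4.56 CPM against 0.447, 0.789 and 1.84 CPM (log2 difference 1.95, SE 0.439, edgeR adjusted p = 0.00196). Cdk1 stood at 42.1, 39.3 and 39.3 CPM against 4.41, 6.44 and 4.5 CPM. These groups were separated by a log2 difference of 2.97 (SE 0.148, edgeR adjusted p = 3.66e-11).

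Among the mitotic genes, Nusap1, which bundles spindle microtubules, had a log2 difference of 5.06 (SE 0.292, edgeR adjusted p = 2.67e-10), from 20.7, 16.5 and 19.3 CPM in ascites and 1.02, 0.425 and 0.271 CPM in thio. Bub1, a spindle checkpoint kinase, had 1 read over the 3 thio vehicle libraries and stood at 1.62, 1.33 and 0.976 CPM in ascites, too few reads for a fold. Top2a stood at 105, 95.5 and 105 CPM against 9.58, 9.47 and 11 CPM. Mki67, which coats mitotic chromosomes and is the usual stain for dividing cells (chromosome 7, 135689784 to 135716361, minus strand, GRCm38), stood at 48, 46.8 and 43.5 CPM against 7.41, 7.47 and 7.97 CPM. The log2 differences were 3.34 for Top2a (SE 0.124, edgeR adjusted p = 7.74e-13) and 2.60 for Mki67 (SE 0.0948, edgeR adjusted p = 6.61e-13). By role, the median log2 difference was 1.70 for replication, 2.27 for nucleotide supply, 3.19 for cyclins and Cdk1, 2.23 for mitotic kinases and checkpoint, 1.76 for the spindle and 2.97 for chromatin.

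Other cell cycle genes, a further list of 89, moved alongside. Of its mitotic genes, 33 of the 37 tested were called higher, and of its 25 replication genes 19 were higher and 1 lower. The D-type cyclins Ccnd1 and Ccnd2, which answer growth factors, had log2 differences of 3.82 and 5.31. The inhibitor Cdkn1c was lower by a log2 difference of -4.38, and the inhibitor Cdkn1a was higher by 1.46. Markers of ovarian epithelial or ID8 tumour cells differed in the same direction: 8 genes summed to 211 to 249 CPM in ascites vehicle libraries, none of them at 0, and to 2.98 to 4.98 CPM in thio vehicle libraries, where Epcam and Msln were at 0. Neutrophil markers summed to 64 to 69.4 CPM in ascites and to 177 to 195 CPM in thio, and macrophage markers to 28800 to 30700 CPM and 34300 to 34800 CPM. Lyz2 made up most of the macrophage sum, with means of 25700 CPM in ascites and 30800 CPM in thio. Adgre1, Cd68 and Mertk also had lower means in ascites. Csf1r, Itgam, Fcgr1 and Cd14 had higher ones, at 2160, 420, 343 and 177 CPM against 1120, 308, 33.8 and 64.3 CPM. The part of any of these cells in the result was not tested.

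In unpolarized bone marrow-derived macrophages, every one of the 42 genes fell in the p53 knockout. All 42 were called lower. The 3 KO_M0 vehicle libraries lay below the 3 WT_M0 vehicle libraries for all 42, a count that was not made over all genes. Log2 differences (KO minus WT) ran from -4.14 for Nusap1 to -0.95 for Pcna, with a median of -3 against 0.03 for all genes. Of all 11779 genes tested, 33.2% were called in either direction and 16.8% were called lower.

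Replication genes had a median log2 difference of -2.48. Mcm5 stood at 117, 85.5 and 81.5 CPM in WT_M0 and at 18.9, 16.3 and 13 CPM in KO_M0. The KO libraries all lay far below (log2 difference -2.56, SE 0.36, edgeR adjusted p = 5.96e-06). Pcna stood at 278, 154 and 135 CPM in WT_M0 and at 103, 100 and 91.1 CPM in KO_M0. That was the smallest difference of the list (-0.95, SE 0.259, edgeR adjusted p = 0.0057), and without WT_M0 vehicle replicate 1 it was not called (edgeR adjusted p = 0.107). Nucleotide genes had a median of -2.77, with Rrm2 at -3.43 (SE 0.552, edgeR adjusted p = 4.57e-05). Rrm2 itself stood at 102, 51.6 and 37.8 CPM in WT_M0 and at 7.08, 7.7 and 2.98 CPM in KO_M0.

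E2f1 stood at 123, 92.2 and 99.4 CPM in WT_M0 and at 45.9, 39.7 and 54.4 CPM in KO_M0 (log2 difference -1.17, SE 0.244, edgeR adjusted p = 0.000503). Foxm1 had a log2 difference of -2.75. Cyclins and Cdk1 had a median of -3.37, the lowest of the roles. Ccne1 went from 31.4, 20.8 and 20.4 CPM in WT_M0 to 3.14, 1.85 and 1.35 CPM in KO_M0, and Cdk1 from 277, 228 and 251 CPM to 45.3, 37.9 and 23.5 CPM. The groups were well apart for both, with log2 differences of -3.49 and -2.82 (SE 0.598 and 0.365). Ccne2 had a log2 difference of -4.02 (SE 0.531, edgeR adjusted p = 3.31e-06).

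The mitotic groups had medians of -3.02 for kinases and checkpoint, -3.24 for the chromosomal passengers Birc5 and Cdca8, -3.32 for the anaphase-promoting complex, -3.36 for the spindle and -3.03 for chromatin. Ube2c, the ubiquitin-conjugating enzyme of the anaphase-promoting complex, stood at 238, 249 and 265 CPM in WT_M0 and at 16.8, 17.9 and 8.38 CPM in KO_M0 (log2 difference -4.13, SE 0.425, edgeR adjusted p = 1.82e-07). Kif23, a kinesin of the dividing cell's midbody, was the spindle gene that differed least, at -1.70 (SE 0.373, edgeR adjusted p = 0.00101). Mki67 went from 194, 234 and 272 CPM in WT_M0 to 27.5, 40.6 and 31.1 CPM in KO_M0, and Top2a (chromosome 11, 98992943 to 99024189, minus strand) from 443, 495 and 568 CPM to 51.1, 57.6 and 50.8 CPM. Their log2 differences were -2.82 (SE 0.331, edgeR adjusted p = 6.07e-07) and -3.24 (SE 0.407, edgeR adjusted p = 1.95e-06).

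Of the 89 other cell cycle genes, 72 were called lower and 1 higher in KO_M0, among them 36 of 38 mitotic and 24 of 25 replication genes lower. The called rise was Cdkn1b, which encodes the inhibitor p27 (log2 difference 1.24, edgeR adjusted p = 0.00127). Ccnd1 fell by 3.34 and Mybl2, which encodes B-MYB, fell by 2.33 on the log2 scale. Cdkn1a fell by 4.58 on the log2 scale (edgeR adjusted p = 1.12e-10). Rb1 differed by -0.11 and was not called. Beside these values, 5 fibroblast markers summed to 161 to 287 CPM in KO_M0 vehicle libraries and to 22.7 to 26.2 CPM in WT_M0 ones, and 7 early progenitor markers to 7.3 to 13.4 CPM and 22 to 26.9 CPM. The fibroblast sum follows the collagen genes Col1a1 and Col1a2, with means of 116 and 118 CPM in KO_M0 and 10.2 and 13.1 CPM in WT_M0. Col3a1 had means of 6.44 and 0.629 CPM, Dcn of 0.629 and 0.16 CPM and Lum of 0.0873 and 0.0852 CPM. The progenitor sum follows Cd34, with group means of 4.04 CPM in KO_M0 and 21 CPM in WT_M0. Prtn3 and Ctsg were also lower in KO_M0, at 0.717 and 0.458 CPM against 1.08 and 1.57 CPM. Mpo was higher in KO_M0, with means of 4.21 and 1.38 CPM. So were Kit, Flt3 and Elane, on few reads, at 0.293, 0.18 and 0.383 CPM against 0, 0 and 0.235 CPM. The 8 macrophage markers summed to 32500 to 39100 CPM in KO_M0 and to 30400 to 38800 CPM in WT_M0. Of these 8, 4 had a higher mean in KO_M0, among them Csf1r, the M-CSF receptor, at 6600 against 1800 CPM, and 4 a lower one, among them Adgre1 at 485 against 1100 CPM and Itgam at 225 against 440 CPM. The part of other cell types in the result was not tested.

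In polarized macrophages the called genotype differences were positive. In M1, 6 of the 42 genes were called higher in KO and 0 lower, and in M2 4 were called higher and 0 lower. The shares of all genes called were 11.6% in M1 (5.93% higher) and 3.56% in M2 (1.21% higher), so that the count in M1 is close to the share of all genes called there. Median log2 differences (KO minus WT) were 0.7 in M1 and 0.88 in M2, against 0 and 0.01 for all genes. Scaling by total counts alone moved the median of all genes to 0.27 in M1 and 0.19 in M2, and called 19 and 13 of the 42 genes higher and 0 lower. The share of calls over all genes that were higher went from 50.9% to 89% in M1 and from 34.1% to 76.6% in M2 with that scaling.

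**Figure D3:**
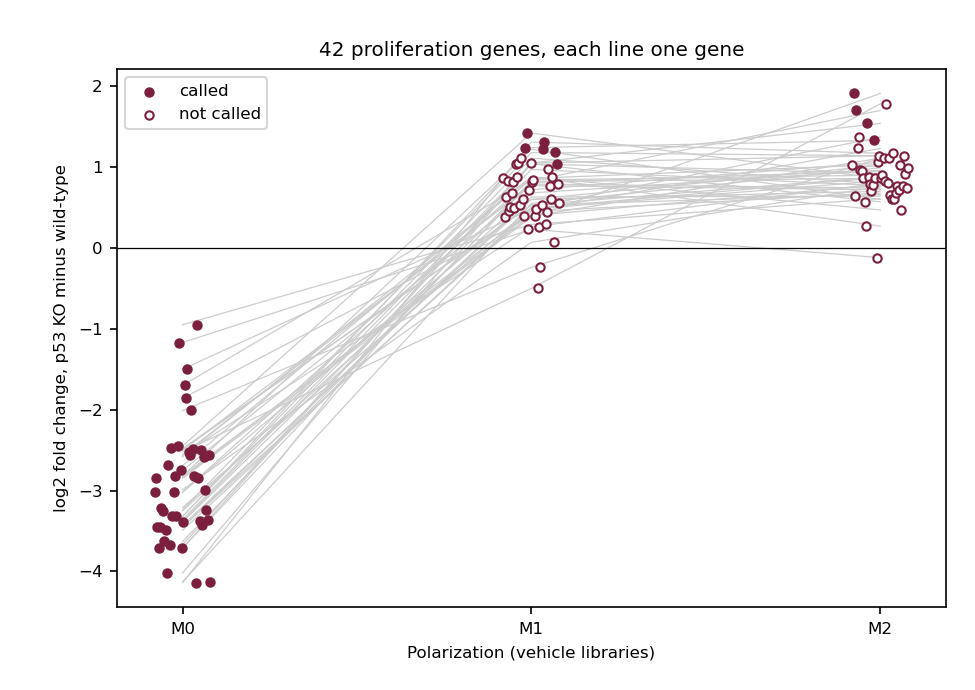
Log2 difference between KO and WT vehicle libraries (y axis) in M0, M1 and M2 (x axis), with 1 line per gene for the 42 genes. The lines run from a median of -3 in M0 to medians of 0.7 in M1 and 0.88 in M2.

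The 6 genes called in M1 were spindle and chromatin genes. Cenpf, a kinetochore protein, stood at 63.2, 137 and 106 CPM in KO_M1 and at 44.7, 34.4 and 35.7 CPM in WT_M1. No libraries overlapped (log2 difference 1.42, SE 0.315, edgeR adjusted p = 0.00415). Mki67 stood at 133, 195 and 220 CPM in KO_M1 and at 77.8, 74.5 and 82.1 CPM in WT_M1 (1.22, SE 0.31, edgeR adjusted p = 0.011). The kinetochore motor Cenpe and the spindle assembly factor Tpx2 had log2 differences of 1.24 and 1.04, and Nusap1 and Top2a of 1.31 and 1.18. The count was 1 without WT_M1 vehicle replicate 2, 2 without KO_M1 vehicle replicate 3, and 3 without WT_M1 replicate 1, WT_M1 replicate 3 or KO_M1 replicate 2. It was 27 without the 4 libraries that stood apart.

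The 4 genes called in M2 were Cdc45, a part of the active helicase, the kinase of the chromosomal passengers Aurkb, Bub1 and Cenpe. Bub1 stood at 11.1, 20.9 and 21.3 CPM in KO_M2 and at 4.73, 6.03 and 5.7 CPM in WT_M2, without overlap (log2 difference 1.70, SE 0.372, edgeR adjusted p = 0.00814). Aurkb differed by 1.91 (edgeR adjusted p = 0.0195), Cenpe by 1.33 (edgeR adjusted p = 0.0163) and Cdc45 by 1.54 (edgeR adjusted p = 0.0497). The count was 21 without KO_M2 vehicle replicate 1 and 0 without KO_M2 vehicle replicate 2 or 3. It was 1 without WT_M2 vehicle replicate 1, 2 without WT_M2 vehicle replicate 3, and 32 without the 4 libraries that stood apart. Early progenitor markers summed to 43.7 to 70.1 CPM in KO_M1 against 6.56 to 9.06 CPM in WT_M1, and to 5.04, 38.5 and 33.7 CPM in KO_M2 against 8.9 to 23.1 CPM in WT_M2. Cd34 of that list went the other way in both states. Its means were 1.64 CPM in KO_M1 and 4.15 CPM in WT_M1, and 5.89 CPM in KO_M2 and 10 CPM in WT_M2. Flt3 was also lower in KO_M1, at 0.0744 against 0.0883 CPM. Macrophage markers summed to 16300 to 25700 CPM in KO_M1 against 44000 to 47000 CPM in WT_M1, and to 5970 to 18500 CPM in KO_M2 against 25000 to 31000 CPM in WT_M2. Most of this was Lyz2, with means of 14800 against 39200 CPM in M1 and 7550 against 23200 CPM in M2. Cd68 and Fcgr1 had higher means in KO_M1, at 575 and 409 CPM against 537 and 373 CPM, as had Fcgr1 in KO_M2. Every other macrophage marker had a lower mean in KO, as had Cd68 in M2. The part of such cells in the result was not tested.

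Within WT macrophages, mitotic genes were lower after LPS with IFN-γ. Of the 42 genes, 18 were called lower in WT_M1 than in WT_M0 and 0 higher, while 15.5% of all genes were called and 7.49% were lower. The median log2 difference (M1 minus M0) was -0.91, against 0 for all genes. By role, 9 of 9 spindle genes, 3 of 3 genes of the anaphase-promoting complex, 2 of 2 chromatin genes, 2 of 5 mitotic kinases and checkpoint genes, 1 of 2 passengers and 1 of 6 cyclins and Cdk1 were called lower. Of the 9 replication genes, 4 nucleotide genes and 2 transcription factors, 0 were called by edgeR. At an unadjusted p under 0.05 the numbers were 0, 1 and 0. Scaling by total counts alone moved the median of all genes to -0.30 and called 24 of the 42 lower, but again 0 of 9 replication genes, whose median was then -0.39. With that scaling 16.9% of the calls over all genes were higher, against 51.7% with TMM scaling.

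Mcm5 stood at 117, 85.5 and 81.5 CPM in WT_M0 and at 83.5, 76.8 and 93.1 CPM in WT_M1, with overlapping groups. Replication genes as a group had a median log2 difference of -0.09 and nucleotide genes of -0.17. E2f1 stood at 115, 137 and 137 CPM in WT_M1, overlapping its WT_M0 values of 123, 92.2 and 99.4 CPM. Ccne1 stood at 53.1, 39.2 and 39.5 CPM in WT_M1, above each of its WT_M0 values of 31.4, 20.8 and 20.4 CPM, but was not called (log2 difference 0.85, SE 0.44, edgeR adjusted p = 0.205).

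Ccnb2 was the cyclin called lower. It stood at 69.3, 96.1 and 88.2 CPM in WT_M0 and at 21.5, 16.7 and 21.9 CPM in WT_M1, and every WT_M1 library lay far below (log2 difference -2.08, SE 0.378, edgeR adjusted p = 0.000368). Ccnb1 had a log2 difference of -1.07 and was not called (edgeR adjusted p = 0.0714). Cdc20, which activates the anaphase-promoting complex, went from 61.7, 90.1 and 104 CPM to 28, 22.8 and 31 CPM (log2 difference -1.64, SE 0.401, edgeR adjusted p = 0.00583). Spindle genes had a median of -1.55, with Cenpf at -1.69 (SE 0.316, edgeR adjusted p = 0.00046). Mki67 went to 77.8, 74.5 and 82.1 CPM from 194, 234 and 272 CPM, and Top2a to 199, 153 and 174 CPM from 443, 495 and 568 CPM. The groups did not overlap, and the log2 differences were -1.58 (SE 0.312, edgeR adjusted p = 0.000804) and -1.52 (SE 0.377, edgeR adjusted p = 0.00682). Without WT_M1 vehicle replicate 2 the count of called genes was 10.

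Among the other cell cycle genes, 17 of 38 mitotic and 1 of 25 replication genes were called lower in WT_M1. The D-type cyclins Ccnd2 and Ccnd3 were called higher, with log2 differences of 1.11 (edgeR adjusted p = 0.0458) and 1.34 (edgeR adjusted p = 4.42e-05). The LPS and IFN-γ markers summed to 426 to 626 CPM in WT_M1 and to 22.9 to 112 CPM in WT_M0. Early progenitor markers summed to 6.56 to 9.06 CPM in WT_M1 and to 22 to 26.9 CPM in WT_M0, most of it Cd34, with group means of 4.15 and 21 CPM. Neutrophil markers summed to 741 to 954 CPM and 365 to 665 CPM, and macrophage markers to 44000 to 47000 CPM and 30400 to 38800 CPM. None of these 3 sums overlapped between the groups. The neutrophil sum follows S100a8 and Mmp8, with means of 371 and 354 CPM in WT_M1 against 195 and 161 CPM. S100a9, Ltf and Camp went the other way, at 112, 0.828 and 3.5 CPM in WT_M1 against 123, 10.6 and 9.11 CPM. Of the macrophage markers, Csf1r, Cd68 and Mertk had lower means in WT_M1. The part of such cells in the result was not tested.

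**Figure D4:**
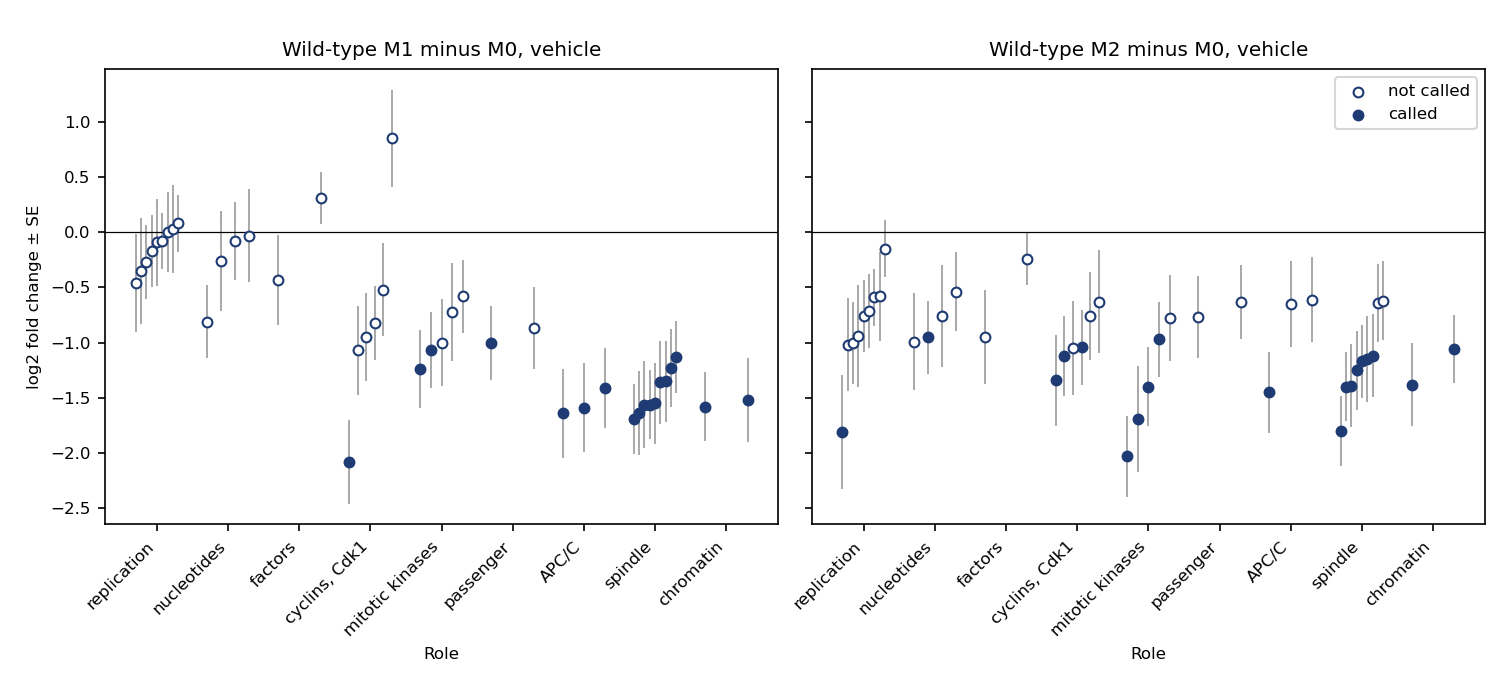
Log2 difference in WT vehicle libraries (M1 minus M0 and M2 minus M0, 1 axis each) for the 42 genes in order of role; lines are SE and filled points are called genes. In M1 the replication genes lie around 0 and the spindle genes around -1.55, while in M2 genes of both roles lie below 0.

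After IL-4 with IL-13, 19 of the 42 genes were called lower in WT_M2 than in WT_M0 and 0 higher, where 23.4% of all genes were called and 10.7% were lower. All 42 log2 differences (M2 minus M0) were negative, with a median of -0.98 against 0.01 for all genes. Replication genes had a median of -0.76, and 1 of 9, Mcm4, was called (log2 difference -1.81, SE 0.513, edgeR adjusted p = 0.0114). Called lower were also 1 of 4 nucleotide genes, 3 of 6 cyclins and Cdk1, 4 of 5 mitotic kinases and checkpoint genes, 1 of 3 genes of the anaphase-promoting complex, 7 of 9 spindle genes and 2 of 2 chromatin genes. Neither of the 2 passengers nor of the 2 transcription factors was called. Scaling by total counts alone moved the median of all genes to -0.20 and called 24 of the 42 lower, 5 of 9 replication genes among them. With it 30.7% of calls over all genes were higher, against 54.2% with TMM scaling.

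Bub1 went from 20.9, 22.5 and 24 CPM in WT_M0 to 4.73, 6.03 and 5.7 CPM in WT_M2, without overlap (log2 difference -2.03, SE 0.37, edgeR adjusted p = 0.000121). Mki67 stood at 82.4, 117 and 137 CPM in WT_M2 and Top2a at 156, 175 and 249 CPM, all below their WT_M0 libraries. Their log2 differences were -1.06 (edgeR adjusted p = 0.0122) and -1.38 (edgeR adjusted p = 0.00851), and that of Cdk1 was -1.04 (edgeR adjusted p = 0.0267). Without WT_M2 vehicle replicate 1, the lowest WT_M2 library for Mki67 and Top2a, the count of called genes was 10, and without the 4 libraries that stood apart it was 24. That library summed to 4090 CPM over neutrophil markers, against 594 and 465 CPM in the other two, and the part of such cells in the result was not tested. Of the other cell cycle genes 38 were called lower, 18 mitotic and 13 replication genes among them, and Ccnd1, Ccnd2 and Ccnd3 fell by 1.85, 1.39 and 0.68 on the log2 scale.

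Set against each other, WT_M1 and WT_M2 differed in 3 of the 42 genes, all higher in M1, where 25.5% of all genes were called and 11.9% were higher, so the share of the list called is below that of all genes. They were Ccne1, Mcm4 and Mcm6, genes that act before or during DNA synthesis. Ccne1 stood at 17.8, 13.9 and 15.2 CPM in WT_M2, below its WT_M1 libraries of 53.1, 39.2 and 39.5 CPM (log2 difference 1.49, SE 0.461, edgeR adjusted p = 0.017). Mcm4 and Mcm6 differed by 1.46 (edgeR adjusted p = 0.0382) and 0.99 (edgeR adjusted p = 0.0497). The count was 0 without WT_M1 vehicle replicate 1 or WT_M2 vehicle replicate 2, 1 without WT_M1 vehicle replicate 2 or 3, and 5 without WT_M2 vehicle replicate 1. Without the 4 libraries that stood apart it was 14, 8 of them higher and 6 lower in M1.

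In KO macrophages polarization went with higher levels of the whole list. All 42 genes were called higher in KO_M1 than in KO_M0, where 44.5% of all genes were called and 22.8% were higher. All 42 were also called higher in KO_M2 than in KO_M0, where 38% of all genes were called and 20.1% were higher. Median log2 differences were 2.76 (M1 minus M0, from 1.16 to 4.83) and 2.93 (M2 minus M0, from 0.8 to 4.27), against -0.01 and 0.02 for all genes. Without the 4 libraries that stood apart, 42 and 42 were called. These comparisons share the 3 KO_M0 vehicle libraries with each other and with the genotype comparison in M0, so their values are not independent. Marker levels also moved: the macrophage markers summed to 32500 to 39100 CPM in KO_M0, to 16300 to 25700 CPM in KO_M1 and to 5970 to 18500 CPM in KO_M2. Lyz2 made up most of these sums, with group means of 27200, 14800 and 7550 CPM. From KO_M0 to KO_M1 the means of Adgre1, Itgam, Fcgr1 and Cd14 rose. They went from 485, 225, 124 and 240 CPM to 1360, 611, 409 and 400 CPM. Csf1r, Cd68 and Mertk fell. Early progenitor markers went from 7.3 to 13.4 CPM in KO_M0 to 43.7 to 70.1 CPM in KO_M1, and KO_M2 held 5.04, 38.5 and 33.7 CPM. From KO_M0 to KO_M1 that sum followed Mpo, Prtn3 and Ctsg. Their means went from 4.21, 0.717 and 0.458 CPM to 18.6, 15.2 and 14.5 CPM. Kit and Elane also rose, while Cd34 and Flt3 fell, from 4.04 and 0.18 CPM to 1.64 and 0.0744 CPM. Neutrophil markers summed to 598 to 726 CPM in KO_M0, 1540 to 2630 CPM in KO_M1 and 404 to 3210 CPM in KO_M2. The part of these cells in the result was not tested.

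The cyclin E genes had the highest values in M1. Ccne1 stood at 3.14, 1.85 and 1.35 CPM in KO_M0 and at 53.8, 58.7 and 71.6 CPM in KO_M1, a log2 difference of 4.83 (SE 0.586, edgeR adjusted p = 3.63e-07). Ccne2 differed by 4.55 (SE 0.533, edgeR adjusted p = 2.59e-07) and Pcna by 1.16 (edgeR adjusted p = 0.000626). In KO_M2, Ccne1 stood at 14.1, 30.2 and 41.4 CPM, above KO_M0 in each library. Cdc45 and Nusap1 had the highest values in M2, at 4.27 (SE 0.59, edgeR adjusted p = 1.36e-06) and 4.16 (SE 0.469, edgeR adjusted p = 1.73e-07). E2f1 had the lowest, at 0.80 (edgeR adjusted p = 0.00965).

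KO_M1 and KO_M2 differed from each other in 2 genes of the list, again a smaller share than the 25.4% of all genes called (12.4% higher and 13% lower in KO_M1). E2f1 was higher in KO_M1, at 177, 123 and 157 CPM against 60, 95.3 and 89.3 CPM (log2 difference 0.90, SE 0.238, edgeR adjusted p = 0.0048). Ccnb2 was lower in KO_M1, at 14.3, 55.9 and 35 CPM against 49.6, 92.6 and 82.6 CPM in KO_M2. These groups overlapped (log2 difference -1.09, SE 0.361, edgeR adjusted p = 0.0254). The count was 4 without KO_M1 vehicle replicate 2 and 1 without KO_M1 vehicle replicate 1, KO_M1 vehicle replicate 3 or KO_M2 vehicle replicate 2. Without the 4 libraries that stood apart it was again 2, but E2f1 was not called then (log2 difference 0.61, edgeR adjusted p = 0.0949), while Ccnb2 was (-0.95, edgeR adjusted p = 0.0203).

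The effect of polarization differed between the genotypes for every gene of the list. The interaction (M1 minus M0 in KO, minus the same in WT) was called positive for 42 of 42 genes, with a median of 3.79 on the log2 scale, where 20.7% of all genes were called and 11.2% were positive. For M2 it was called positive for 42 of 42, with a median of 4.07, where 27.1% of all genes were called and 13.9% were positive. Scaling by total counts alone moved the median of all genes to 0.23 and 0.13 and called the same numbers, 42 and 42. The share of calls over all genes that were positive went from 54.1% to 76.4% for M1 and from 51.4% to 65.2% for M2 with that scaling. Without the 4 libraries that stood apart both were again called for 42 genes. Both interactions use the KO_M0 and WT_M0 vehicle libraries.

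With AP-3-84, the list gave calls in KO_M0 and thio macrophages, and in 6 of the 8 populations edgeR called 0 of the 42 genes. In ascites, WT_M0, WT_M1, WT_M2 and KO_M1, which are taken first, DESeq2 called 0 as well. At an unadjusted p under 0.05 the numbers were 1, 2, 0, 4 and 0. The shares of all genes called were 1.79%, 0.144%, 0.017%, 1.21% and 0%. Median log2 differences (AP-3-84 minus vehicle) were 0.05 in ascites, -0.37 in WT_M0, -0.05 in WT_M1, 0.48 in WT_M2 and 0.09 in KO_M1.

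In WT_M0 all 42 log2 differences were negative and in WT_M2 41 of 42 were positive, but neither group gave a called gene. The summed level in WT_M0 was 3100, 4150 and 4880 CPM with AP-3-84, below each of the vehicle libraries at 4980, 4910 and 5130 CPM. In WT_M2 it was 3580, 3530 and 3450 CPM, above each of the vehicle libraries at 2060, 2670 and 3180 CPM. Rrm2 in WT_M2 stood at 95.7, 94.1 and 68.9 CPM with AP-3-84 and at 34.8, 32.6 and 45.6 CPM with vehicle, without overlap (log2 difference 1.20, SE 0.465, edgeR adjusted p = 0.261).

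In thio macrophages 3 of 42 genes were called, where 4.32% of all genes were called, 2.51% higher and 1.82% lower. Mcm3 fell, from 42.2, 46.4 and 42.8 CPM with vehicle to 37, 33.7 and 33.8 CPM (log2 difference -0.33, SE 0.0756, edgeR adjusted p = 0.0173). Cdc45 went from 0.766, 0.607 and 0.542 CPM to 1.55, 1.54 and 2.14 CPM (1.44, SE 0.394, edgeR adjusted p = 0.0479). Top2a was called at a log2 difference of 0.46 with groups that touched, at 9.58, 9.47 and 11 CPM against 14, 16.3 and 11 CPM (edgeR adjusted p = 0.0498). The count was 0 without thio vehicle replicate 2, and 1 without thio vehicle replicate 3, thio AP-3-84 replicate 2 or thio AP-3-84 replicate 3. It was 1, Mcm3, with the replicate number as a block, with median-ratio size factors and with scaling by total counts.

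KO_M0 was the population in which AP-3-84 moved most of the list. There 35 of 42 genes were called higher and 0 lower, with a median log2 difference of 1.71 against -0.03 for all genes. Of all genes, 20.7% were called and 12.1% were higher. In 32 genes the 3 AP-3-84 libraries lay above the 3 vehicle libraries, and the share of all genes that did so was not counted. The 3 AP-3-84 libraries were unlike each other: the summed level was 1340, 3760 and 1490 CPM, against 791, 842 and 720 CPM with vehicle. Without AP-3-84 replicate 2, the library at 3760 CPM, 13 genes were called, and without all 4 libraries that stood apart 23 were called. In a fit of these 6 libraries alone 11 were called.

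**Figure D5:**
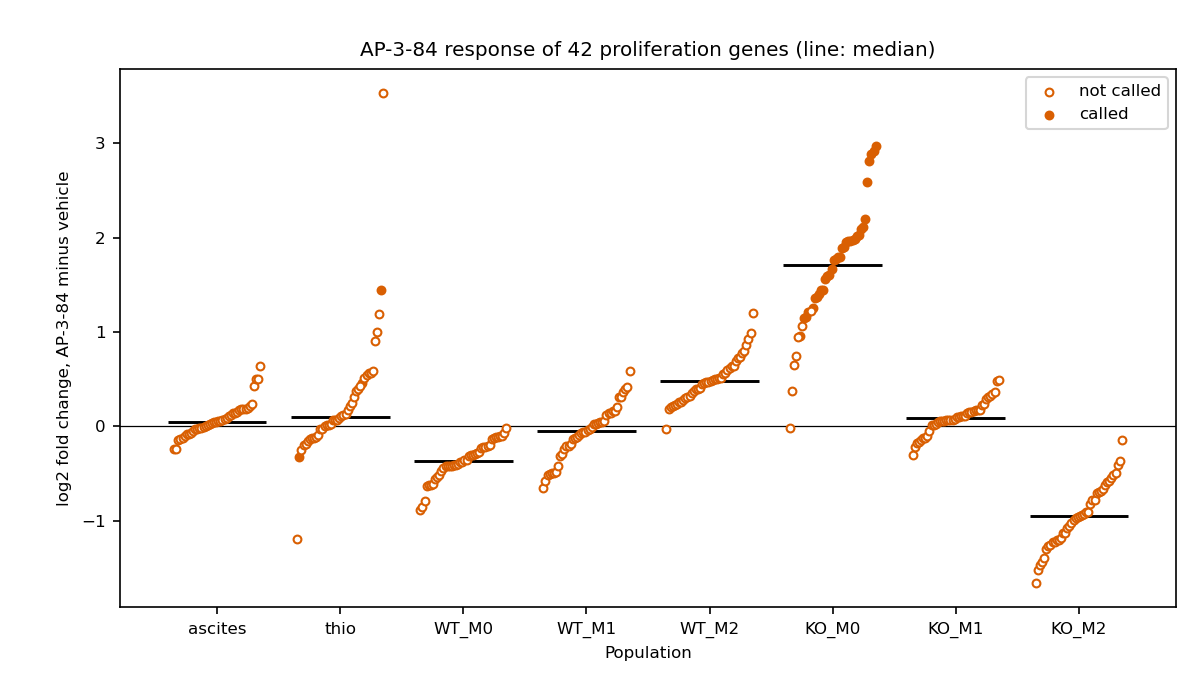
Log2 difference between AP-3-84 and vehicle libraries (y axis) for each of the 42 genes in each of the 8 populations (x axis); filled points are called genes and the line is the median. KO_M0 has a median of 1.71 and KO_M2 of -0.95; the highest open point in thio is Bub1, with 1 read over the 3 thio vehicle libraries.

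By role, 6 of 9 replication genes, 4 of 4 nucleotide genes, 2 of 2 transcription factors, 6 of 6 cyclins and Cdk1, 3 of 5 mitotic kinases and checkpoint genes, 2 of 2 passengers, 3 of 3 genes of the anaphase-promoting complex, 7 of 9 spindle genes and 2 of 2 chromatin genes rose in KO_M0. Mcm4, Mcm6, Pcna, Aurkb, Bub1, Kif23 and Cenpf were not called. Mcm5 stood at 18.9, 16.3 and 13 CPM with vehicle and at 42.7, 104 and 39.7 CPM with AP-3-84. All AP-3-84 libraries were higher, and replicate 2 stood well above the other two (log2 difference 1.95, SE 0.359, edgeR adjusted p = 0.000326). Ccne2 had the largest difference, from 2.36, 4 and 5.95 CPM to 17.4, 60.4 and 18.5 CPM (2.97, SE 0.536, edgeR adjusted p = 0.000315). Ccne1 followed, from 3.14, 1.85 and 1.35 CPM to 6.06, 35.3 and 7.41 CPM (2.92, SE 0.613, edgeR adjusted p = 0.00127), but was not called without AP-3-84 replicate 2.

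Ube2c stood at 16.8, 17.9 and 8.38 CPM with vehicle and at 58.9, 145 and 55.1 CPM with AP-3-84 in KO_M0, and Nusap1 at 10.5, 4.93 and 6.22 CPM and at 36.9, 90.8 and 26.2 CPM. Both were above vehicle in each AP-3-84 library and had log2 differences of 2.59 and 2.81 (SE 0.411 and 0.464). Top2a went from 51.1, 57.6 and 50.8 CPM to 118, 403 and 124 CPM (2.02, SE 0.391, edgeR adjusted p = 0.00065), and Mki67 from 27.5, 40.6 and 31.1 CPM to 62.7, 117 and 48.4 CPM (1.21, SE 0.322, edgeR adjusted p = 0.0084). Without replicate 2 of AP-3-84, the genes named for this response that were no longer called were Mki67, Ccnb1, Cdc20, Ccne1, E2f1, Foxm1, Rrm2 and Stmn1. Kif23, at 22.8, 28.3 and 23.8 CPM with vehicle and 15.4, 36.8 and 21.7 CPM with AP-3-84, overlapped.

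The AP-3-84 libraries of KO_M0 still lay below the WT_M0 vehicle libraries for Top2a and Mki67. This did not hold for every gene: in replicate 2, Mcm3, E2f1 and Ccne1 stood at 195, 132 and 35.3 CPM. Their highest WT_M0 vehicle values were 170, 123 and 31.4 CPM. Of the 89 other cell cycle genes, 45 rose and 2 fell with AP-3-84 in KO_M0. They included 30 of 38 mitotic and 9 of 25 replication genes that rose, Mybl2 and the inhibitor Cdkn1a with log2 differences of 2.0 and 1.2, and the falls of Cdkn1b and Rbl2 by 0.76 and 0.9 on the log2 scale. Macrophage markers summed to 39200, 18100 and 29300 CPM in the 3 AP-3-84 libraries and fibroblast markers to 133, 50.8 and 223 CPM, with replicate 2 lowest for both, against 32500 to 39100 CPM and 161 to 287 CPM with vehicle. Lyz2 made up most of the macrophage sum, with means of 27200 CPM with vehicle and 22900 CPM with AP-3-84. The means of Csf1r, Cd68 and Mertk also fell, from 6600, 1160 and 301 CPM to 2840, 542 and 82 CPM. Those of Adgre1, Itgam, Fcgr1 and Cd14 rose, from 485, 225, 124 and 240 CPM to 1510, 469, 206 and 287 CPM. Neutrophil markers summed to 299 to 514 CPM with AP-3-84 and to 598 to 726 CPM with vehicle, and B cell markers to 6.62 to 22.7 CPM and 2.16 to 5.23 CPM. Of the 5 B cell markers, 4 had no reads in either group, so that sum is Cd79b alone. The part of the makeup of the cells in the result was not tested.

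In KO_M2 all 42 log2 differences were negative, with a median of -0.95, and edgeR called 0 of them, where 0.0509% of all genes were called. At an unadjusted p under 0.05 there were 30, and DESeq2 called 3. The summed level was 3190, 1890 and 2870 CPM with AP-3-84 and 2520, 5640 and 5650 CPM with vehicle. The vehicle libraries fell into a low one and a high pair. Without vehicle replicate 1, the low one, 21 genes were called, without AP-3-84 replicate 1 it was 4, and without the 4 libraries that stood apart it was 36. Rrm2 stood at 41.1, 20.7 and 25.8 CPM with AP-3-84 and at 32.6, 98 and 98.7 CPM with vehicle (log2 difference -1.40, SE 0.471, edgeR adjusted p = 0.222). Macrophage markers in the KO_M2 vehicle libraries summed to 18500, 9410 and 5970 CPM and early progenitor markers to 5.04, 38.5 and 33.7 CPM. In the AP-3-84 libraries the sums were 14900, 19100 and 13900 CPM, and 13.4, 6.25 and 7.41 CPM. Most of the macrophage sum was Lyz2, with means of 7550 CPM with vehicle and 11800 CPM with AP-3-84. Adgre1, Fcgr1 and Cd14 had lower means with AP-3-84, and Kit of the progenitor list had a higher one. The part of such cells in the result was not tested.

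The response to AP-3-84 differed between KO and WT in M0. The difference (KO response minus WT response) was called positive for 32 of 42 genes, with a median of 2.02 on the log2 scale, where 17% of all genes were called and 10% were positive. Ccne2 and Ccne1 had the highest values, 3.59 (SE 0.683, edgeR adjusted p = 0.000951) and 3.55 (SE 0.773, edgeR adjusted p = 0.00272). Without KO_M0 AP-3-84 replicate 2 the count was 17, and without the 4 libraries that stood apart it was 27. In M2 the difference was called negative for 6 genes, with a median of -1.31, where 1.77% of all genes were called and 0.688% were negative. They were the helicase genes Mcm2, Mcm3, Mcm6 and Cdc45, with Rrm2 and Bub1. For Rrm2 the value was -2.59 (SE 0.662, edgeR adjusted p = 0.0402), from log2 differences of 1.20 in WT_M2 and -1.40 in KO_M2, neither of them called. Scaling by total counts alone moved the median of all genes to -0.15 and the share of calls that were positive from 61.1% to 36.1%, and called 9 of the 42 genes negative.

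The count in M2 moved with single libraries: it was 24 without KO_M2 vehicle replicate 1, and 0 without WT_M2 AP-3-84 replicate 1, KO_M2 vehicle replicate 2 or 3, or KO_M2 AP-3-84 replicate 2 or 3. It was 33 without the 4 libraries that stood apart, 1 without WT_M2 vehicle replicate 2 or WT_M2 AP-3-84 replicate 2, and 3 without WT_M2 vehicle replicate 1 or WT_M2 AP-3-84 replicate 3. In M1, edgeR and DESeq2 each called 0 of the 42 genes for a difference in response between KO and WT, with 0 at an unadjusted p under 0.05, and 0.00849% of all genes were called. Between ascites and thio, edgeR and DESeq2 also called 0, with 7 at an unadjusted p under 0.05, where 0.118% of all genes were called.

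Between polarizations of KO cells, the response was lower in M1 than in M0 for 18 of 42 genes (median -1.66, 6.12% of all genes called, 4.78% negative) and lower in M2 than in M0 for 38 of 42 (median -2.62, 15.8% of all genes called, 10.1% negative). Ccne1 had values of -3.04 (edgeR adjusted p = 0.0151) and -4.18. The first was not called without KO_M0 AP-3-84 replicate 2 (-1.77, edgeR adjusted p = 0.146), without the 4 libraries that stood apart (-1.85, edgeR adjusted p = 0.0818) or in a fit of the compared groups alone (-3.03, edgeR adjusted p = 0.0963). With scaling by total counts, 7 genes were called for M1. Without the 4 libraries that stood apart, 13 were called for M1 and 37 for M2. For M1 the count was 3 without KO_M0 AP-3-84 replicate 2, 5 without KO_M1 vehicle replicate 3, 7 without KO_M1 AP-3-84 replicate 2 and 8 to 10 without KO_M0 vehicle replicate 1, 2 or 3, KO_M1 vehicle replicate 2, or KO_M1 AP-3-84 replicate 1 or 3. In WT cells, edgeR and DESeq2 called 0 of 42 genes for M1 against M0, with 2 at an unadjusted p under 0.05, and 0 for M2 against M0, with 11. The shares of all genes called were 0.0255% and 0.136%. All differences in KO that involve M0 rest on the same 3 KO_M0 vehicle and 3 KO_M0 AP-3-84 libraries.

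Counting is less certain for some members. In the last 500 bases of its transcripts, where 3′ reads fall, Ccnb1 shared 31% of 50-base words with other genes of the annotation, Mcm7 30.1%, Stmn1 23.2% and Pcna 21%, mainly with pseudogenes. For 9 members another gene lies over these bases, and whether the counting used strand is not given in the sources used here.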

How the data were processed

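RNA of 48 libraries was measured by 3′ mRNA sequencing (QuantSeq FWD kit, 100 ng of RNA, single reads of 75 bases, per the labels' protocols). The authors deposited whole-number counts per gene and library, and RSEM, Bowtie2 and DESeq2 stand in the submitters' processing notes, without roles. The build used for counting is not given in the sources used here, nor are its annotation and the handling of strand and molecular identifiers. No columns were identical. A gene-name table gave symbols for 51596 of 51789 gene IDs. Coordinates of genes came from GENCODE M21 (GRCm38) by ID, which need not be the build behind the counts.

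The test was edgeR's robust quasi-likelihood F-test (edgeR 4.0.16, R 4.3.3), with TMM scaling and filterByExpr by group, 1 mean per group and no block, in 1 fit of 12 peritoneal libraries (16955 genes) and 1 of 36 bone marrow-derived libraries (11779 genes). The biological coefficient of variation was 0.168 and 0.225. Calls are at a two-sided Benjamini-Hochberg adjusted p under 0.05 over all genes tested in a comparison, and 28 comparisons were made. CPM values use TMM-scaled library sizes. The fits were tested on simulated counts with known changes. Genes were named in each comparison from Mki67, Top2a, Ccnb1, Cdk1, Cdc20, Ccne1, E2f1, Foxm1, Mcm5, Rrm2, Pcna and Stmn1 where called, and the 2 largest changes in each direction. Other named genes, the promoters shown and the markers with values were chosen after their values were seen. The 42 members and all lists were chosen with earlier results of these data known.

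As alternatives, libraries were scaled by median-ratio size factors or by total counts, and the fits were run with no filter, with the Wald test of DESeq2 1.42.0, with the replicate number as a block, with only the groups compared, and without each library in turn.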

Additional observations from a re-analysis of the deposited data

Results flagged for a closer look

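The response to AP-3-84 differed between groups by a test of the difference itself in 4 comparisons. Between KO and WT in M0 it differed for 32 of 42 genes, all more positive in KO. Between KO and WT in M2 it differed for 6 genes, all more negative in KO. Within KO cells it was lower in M1 than in M0 for 18 genes and lower in M2 than in M0 for 38. The 3 KO_M0 vehicle libraries enter all of these but that in M2.

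The difference between polarized and unpolarized vehicle libraries was more positive in KO than in WT for 42 of 42 genes with M1, and for 42 of 42 with M2. Mki67 shows the values behind both: WT_M0 stood at 194, 234 and 272 CPM, above WT_M1 and WT_M2, and KO_M0 at 27.5, 40.6 and 31.1 CPM, below KO_M1 and KO_M2.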

How the results depend on the processing

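The lower level of the list in KO_M0, the higher level in ascites and the rise from KO_M0 to KO_M1 and KO_M2 gave 40 or more calls among the 42 genes when any 1 library was left out, and the 2 tests of polarization between genotypes gave 39 or more. Counts of called genes that changed by over 1.5 times were these, each with the value of the reported fit first. Without the filter on low counts: AP-3-84 in thio 3 and 5, in WT_M0 0 and 1, in WT_M2 0 and 4, in KO_M2 0 and 31; response of KO minus WT in M2 6 and 35, of M2 minus M0 in WT 0 and 9, of M1 minus M0 in KO 18 and 34; KO minus WT in M1 6 and 25, in M2 4 and 36; WT_M2 minus WT_M0 19 and 36, WT_M1 minus WT_M2 3 and 14, KO_M1 minus KO_M2 2 and 9. The cause was not tested. With only the groups compared, AP-3-84 in thio gave 1, in WT_M2 1 and in KO_M0 11. The response of KO minus WT in M2 gave 0, of M1 minus M0 in KO 3 and of M2 minus M0 in KO 18. KO minus WT gave 16 in M1 and 0 in M2, WT_M1 minus WT_M2 gave 11 and KO_M1 minus KO_M2 gave 1. With DESeq2, AP-3-84 in KO_M2 gave 3, the response of KO minus WT in M2 gave 10, KO minus WT in M2 gave 11 and WT_M1 minus WT_M2 gave 6. With total counts, AP-3-84 in thio gave 1, the response of M1 minus M0 in KO 7, and KO minus WT 19 in M1 and 13 in M2. Median-ratio size factors gave 1 for AP-3-84 in thio. Scaling by total counts also moved the share of all calls that were higher from 60.3% to 70.3% for ascites minus thio, from 94.4% to 81.8% for AP-3-84 in ascites, from 19% to 33.1% in WT_M2 and from 21.9% to 32.1% for the response of M1 minus M0 in KO.

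Leaving out the 4 libraries that stood apart, an alternative chosen after seeing the data, gave 23 for AP-3-84 in KO_M0 and 36 in KO_M2. It gave 33 for the response of KO minus WT in M2, 2 for that of M2 minus M0 in WT, 27 and 32 for KO minus WT in M1 and M2, and 14 for WT_M1 minus WT_M2.

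Leaving out 1 library in turn gave 0 to 2 calls for AP-3-84 in thio, 13 to 37 in KO_M0 and 0 to 21 in KO_M2. It gave 17 to 38 for the response of KO minus WT in M0, 0 to 24 in M2, 3 to 27 for that of M1 minus M0 in KO and 30 to 39 for M2 minus M0 in KO. It gave 1 to 8 for KO minus WT in M1 and 0 to 21 in M2, 10 to 17 for WT_M1 minus WT_M0, 10 to 15 for WT_M2 minus WT_M0, 0 to 5 for WT_M1 minus WT_M2 and 1 to 4 for KO_M1 minus KO_M2.

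The labels do not say whether replicate numbers pair the vehicle and AP-3-84 libraries. Deviations of same-numbered libraries correlated at -0.33 to 0.38. Libraries of different numbers were not compared in this way, so these values do not decide whether the numbers pair. With the replicate block the count for AP-3-84 in thio went from 3 to 1, and no other count changed by over 1.5 times. Of 199 values of single genes, 0 changed sign in any setting. These were largely genes called in the reported fit or with the largest changes, so a change of sign was unlikely from the start. Under other settings calls were lost in 67 of 1332 refitted values and gained in 24. With 1 library left out, calls were lost in 221 of 1590 and gained in 5. With 2663 reads over the 42 genes in the smallest bone marrow-derived sum, differences of genes at 1 or 2 CPM rest on few reads.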
